A study of Mus musculus with 2 samples.

Results

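Mir208a, Mir208b and Mir499 are 3 of the 2202 microRNA genes in the count tables, chosen by name because each lies inside a myosin heavy chain gene: Myh6 for Mir208a, Myh7 for Mir208b and Myh7b for Mir499. The libraries were made from small RNA (under 30 bases, per the labels) of heart tissue from B6CASTF1/J females, an F1 hybrid strain, aged 14 days. There was 1 group with 2 biological replicates and no treatment, so no condition could be compared. The label of replicate 1 speaks of 3 females and that of replicate 2 of a single animal, both cite the same donor record, and whether replicate 1 was pooled is not stated. The age field gives 14 days while another label writes months for the same number, and the age field was followed. Errors given as SD measure only the spread between these samples.

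Myosin heavy chains are the motor proteins of the thick filament. Myh6 encodes the fast alpha chain that dominates the adult mouse ventricle, Myh7 the slow beta chain of the fetal ventricle and of slow skeletal muscle, and Myh7b a more divergent relative. The rodent ventricle shifts from the beta to the alpha chain around birth. MicroRNAs cut from the introns of these genes are loaded into Argonaute and pair through their seed (bases 2 to 8) with messenger RNAs, whose translation and stability they lower. miR-208a is known as a cardiac microRNA needed for the stress response of the adult heart. miR-208b and miR-499 are known for favouring slow muscle gene programmes by repressing transcriptional repressors such as Sox6.

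The mature sequences show why the 3 genes are treated as a family. Below are the arms known as the functional ones, from RefSeq on GRCm38.p6 (the assembly of mm10), 5′ to 3′, with the seed in capitals.

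miR-208a-3p (chr14:54949072-54949093, minus strand): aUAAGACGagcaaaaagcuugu
miR-208b-3p (chr14:54975710-54975731, minus strand): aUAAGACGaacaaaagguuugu
miR-499-5p (chr2:155622893-155622913, plus strand): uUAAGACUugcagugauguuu

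The seeds of miR-208a-3p and miR-208b-3p were identical, and that of miR-499-5p matched them at 6 of its positions, UAAGAC at bases 2 to 7. Counted from 1 at the 5′ end, miR-208a-3p and miR-208b-3p were identical at 19 of 22 positions and differed by G10A, A16G and C18U, with the base of miR-208a-3p first. Over the 21 positions compared without gaps, miR-499-5p was identical to miR-208a-3p at 12 and to miR-208b-3p at 10; the seed difference was G8U, with the base of miR-208a-3p first. Among 1738 mature arms of 1058 mouse microRNA genes in the RefSeq table, 0 arms of any other gene carried UAAGAC at bases 2 to 7. In that table, this hexamer seed therefore belonged to these 3 genes alone.

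The functional arm lies on one side of the hairpin in Mir208a and Mir208b and on the other in Mir499, as the hairpins below show with that arm in capitals.

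Mir208a: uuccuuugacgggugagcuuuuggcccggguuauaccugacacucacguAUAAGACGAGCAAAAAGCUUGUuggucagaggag
Mir208b: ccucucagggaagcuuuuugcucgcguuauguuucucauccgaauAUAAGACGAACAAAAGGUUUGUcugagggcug
Mir499: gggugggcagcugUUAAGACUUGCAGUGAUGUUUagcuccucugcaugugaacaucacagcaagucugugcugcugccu

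In Mir208a and Mir208b the arm occupied bases 50 to 71 and 46 to 67 of the hairpin, its 3′ side, whereas in Mir499 it occupied bases 14 to 34, the 5′ side. The opposite arms, miR-208a-5p and miR-208b-5p, also shared their seed with each other, AGCUUUU. That seed occurs in 1 other gene, Mir6415, which had 0 reads in both libraries. The hexamer AGCUUU at bases 2 to 7 occurs in 2 further genes, Mir3101 with 2 and 2 reads and Mir7223 with 0 and 0. The opposite arm of Mir499, miR-499-3p, shares the hexamer AACAUC with Mir448, which had 1 and 0 reads. The tables count reads per hairpin and do not separate its arms, so the values below cover both.

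Each hairpin lay in a short intron between coding exons, on the strand of its host (mm10, GENCODE M21). Mir208a (ENSMUSG00000065432.1, chromosome 14, 54949060 to 54949142) sat in intron 29 of the 39-exon transcript Myh6-201, an intron of 542 bases. Mir208b (ENSMUSG00000077928.1, chromosome 14, 54975700 to 54975776) sat in intron 31 of the 41-exon transcript Myh7-201, an intron of 461 bases. Mir499 (ENSMUSG00000076312.1, chromosome 2, 155622880 to 155622958) sat in intron 19 of the 42-exon transcript Myh7b-201, an intron of 481 bases. The 208 hairpins thus shared a late position in neighbouring host genes, while Mir499 lay near the middle of its host.

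**Figure D1:**
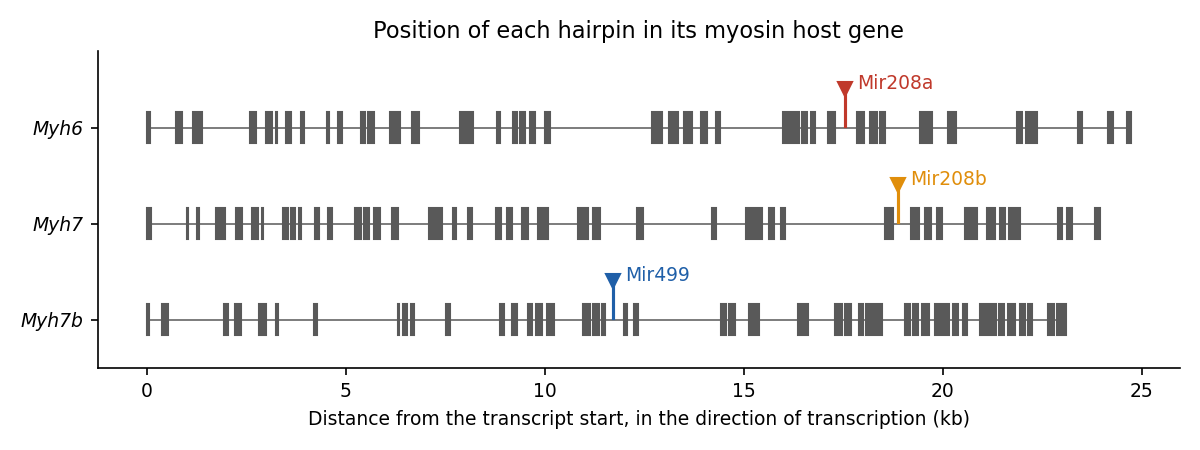
Exons (grey boxes) of Myh6, Myh7 and Myh7b against the distance from the transcript start in kb, with the hairpin of each intronic microRNA marked by a triangle. Mir208a and Mir208b lie 17499 and 18850 bases from the start, well past the middle of their hosts, and Mir499 lies 11668 bases from it, close to the middle of its host.

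The gap between Mir208a and Mir208b was 26557 bases, and each was the annotated microRNA nearest to the other. The microRNA nearest to Mir499 was Mir695, 265954 bases away, with 0 reads in both libraries. The unstranded and own-strand counts of each of the 3 genes were equal, and the opposite strand of each had 0 reads in both libraries. With CPM standing for reads scaled to 1000000 reads on microRNA genes, 0 reads leave room for a level of 0.573 CPM in replicate 1 and of 0.991 CPM in replicate 2 (3 reads, counting error only).

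Among the 2202 annotated hairpins, these 3 had no near-identical copy. The longest stretch that Mir208a shared with any other hairpin was 14 bases, with Mir208b, and for Mir499 it was 13 bases, with Gm24462. With both strands searched, the closest match to miR-208a-3p in another hairpin, that of Mir208b, had 3 mismatches, and the closest match to miR-499-5p, that of Mir7055, had 4. Sequence outside the annotated hairpins was not searched.

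All 3 genes reached 10 reads in both libraries, as did 335 of all 2202 genes (15.2%). Replicate 1 held 5237062 and replicate 2 held 3026501 reads on the own strand of microRNA genes, out of 12701590 and 7126319 reads. A further 41.1% and 39.9% of all reads mapped to several places and were counted for no gene.

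Mir499 was the most abundant of the 3 genes. It had 18235 reads in replicate 1, or 3482 CPM (exact 95% Clopper-Pearson interval 3432 to 3533), and 7524 reads in replicate 2, or 2486 CPM (2430 to 2543). Its mean was 2984 ± 704 CPM (SD, n = 2), and it ranked number 36 and 41 among all genes in replicates 1 and 2.

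Mir208a, from the gene of the alpha chain, came next. It had 7100 reads or 1356 CPM (1324 to 1388) in replicate 1 and 1939 reads or 641 CPM (612 to 670) in replicate 2. The mean was 998 ± 506 CPM (SD, n = 2), with ranks 63 and 85, so replicate 1 stood well above replicate 2 and the SD was about 50.7% of the mean.

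Mir208b, from the gene of the beta chain, was the lowest and the steadiest. It had 1721 reads or 329 CPM (313 to 345) in replicate 1 and 872 reads or 288 CPM (269 to 308) in replicate 2. Its mean was 308 ± 28.6 CPM (SD, n = 2), with ranks 106 and 109, and its SD was 9.29% of the mean, against 23.6% for Mir499.

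The order Mir499, Mir208a, Mir208b held in both libraries, and the values of neighbours in it did not overlap: the lower library of Mir499 (2486 CPM) was above the higher one of Mir208a (1356 CPM), and the lower one of Mir208a (641 CPM) was above the higher one of Mir208b (329 CPM). With 2 libraries no test of this order across samples was made. Their hairpins are of similar length (83, 77 and 79 bases), so that scaling by length left the order as it was. Adapters are known to ligate to different small RNAs with different efficiency, and a ratio of reads between genes need not be a ratio of molecules. In bulk tissue, fewer cells of a type and less RNA per cell cannot be told apart.

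Summed, the 3 genes took 0.517% (exact interval 0.511 to 0.523) of counted reads in replicate 1 and 0.341% (0.335 to 0.348) in replicate 2. Since no other gene of the RefSeq table carries the hexamer UAAGAC at bases 2 to 7, these 27056 and 10335 reads are also all the counted reads of genes known from that table to carry it. Mir499 made up 67.4% (66.8 to 68.0) of them in replicate 1 and 72.8% (71.9 to 73.7) in replicate 2. Mir208a made up 26.2% (25.7 to 26.8) and 18.8% (18.0 to 19.5), and Mir208b 6.36% (6.07 to 6.66) and 8.44% (7.91 to 8.99). Most of the reads of genes with this hexamer thus came from the Myh7b intron, and Mir208a, with the alpha chain gene as host, gave the share that differed most between libraries.

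Ratios within a library need no scaling and were formed for the 3 pairs. Mir208a exceeded Mir208b by 4.13-fold (exact interval from the binomial share 3.91 to 4.35) in replicate 1 and by 2.22-fold (2.05 to 2.41) in replicate 2. Per hairpin base these ratios were 3.83 and 2.06. The gene hosted by the alpha chain thus had more reads than the gene hosted by the beta chain in both libraries, by an amount that differed 1.86-fold (log2 0.89) between them.

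Mir499 exceeded Mir208a by 2.57-fold (2.50 to 2.64) in replicate 1 and by 3.88-fold (3.69 to 4.08) in replicate 2. It exceeded Mir208b by 10.6-fold (10.1 to 11.1) and 8.63-fold (8.04 to 9.27). For each of the 3 pairs the counting intervals of the libraries did not overlap, yet shifts of this size were common between these libraries. Among all 25425 pairs of the 226 genes averaging 100 or more reads, 38.0% changed their ratio at least as much as Mir208a to Mir208b, 53.6% as much as Mir499 to Mir208a and 75.2% as much as Mir499 to Mir208b. These percentages describe these libraries only.

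**Figure D2:**
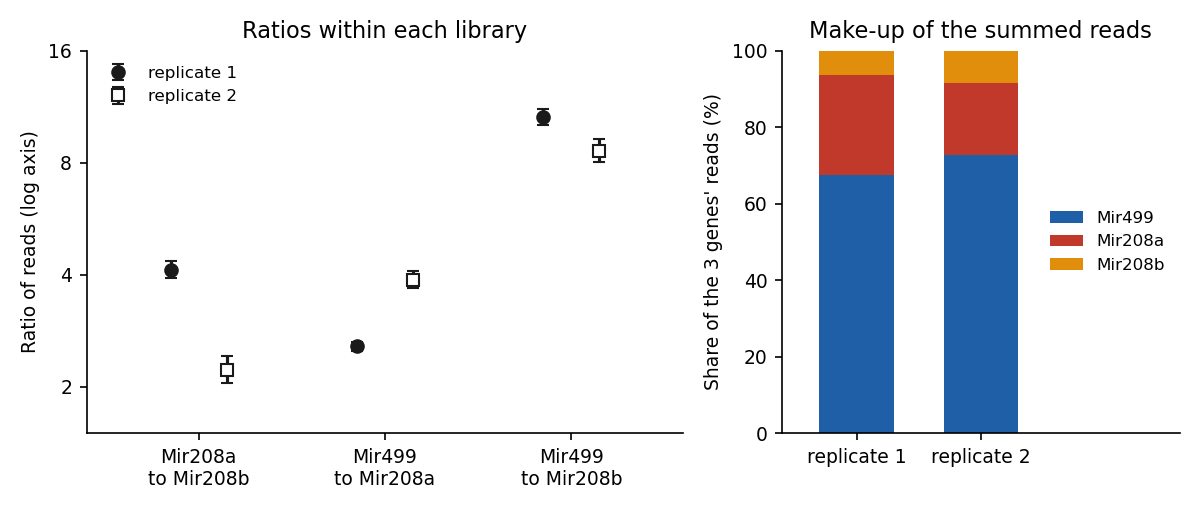
Left, the ratio of reads of each pair of genes on a log axis, replicate 1 as filled circles and replicate 2 as open squares, with exact 95% intervals for counting error; the ratio of Mir208a to Mir208b is 4.13 in replicate 1 and 2.22 in replicate 2. Right, the share of each gene in the summed reads of the 3 in each library, of which Mir499 holds 67.4% and 72.8%.

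Between the libraries, Mir208a and Mir499 were higher in replicate 1 beyond counting error and Mir208b was not called. An exact two-sided binomial test over the whole table, with library sizes scaled by TMM (the trimmed mean of log ratios of edgeR) and Benjamini-Hochberg adjustment, called 2 of the 3 genes, both higher in replicate 1. Of 430 genes tested, 120 (27.9%) were called higher in replicate 1 and 238 (55.3%) were called in either direction. Being called was therefore common, and the test compares these 2 libraries, not conditions.

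After TMM scaling Mir208a was higher in replicate 1 by 1.93-fold (log2 0.95, counting interval 0.87 to 1.02, exact binomial adjusted p = 6.46e-161). Of the 226 genes averaging 100 or more reads, 41 (18.1%) differed more. Mir499 was higher by 1.28-fold (log2 0.35, 0.31 to 0.39, exact binomial adjusted p = 4.28e-72), and 125 of those genes (55.3%) differed more. Mir208b had a log2 difference of 0.06 (-0.06 to 0.17, exact binomial adjusted p = 0.479), and 215 of those genes (95.1%) differed more.

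With a spread beyond counting error allowed for, the calls depended on its size. With a biological coefficient of variation set to 0.1, edgeR's exact test called Mir208a (adjusted p = 5.82e-05) and not Mir499 (adjusted p = 0.197) or Mir208b (adjusted p = 0.904). With the biological coefficient of variation of 0.424 that edgeR estimated from these same 2 libraries, so that their difference also set the spread, the same test gave an adjusted p of 1 for each of the 3 genes (unadjusted p = 0.29 for Mir208a, 0.692 for Mir499 and 0.951 for Mir208b) and called 4 of 430 genes, Mir451a, Mir26a-2, Mir185 and Mir3074-1. With total counts in place of TMM, which moves every log2 difference by 0.13, Mir208b was called higher too (log2 0.19, exact binomial adjusted p = 0.00353).

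**Figure D3:**
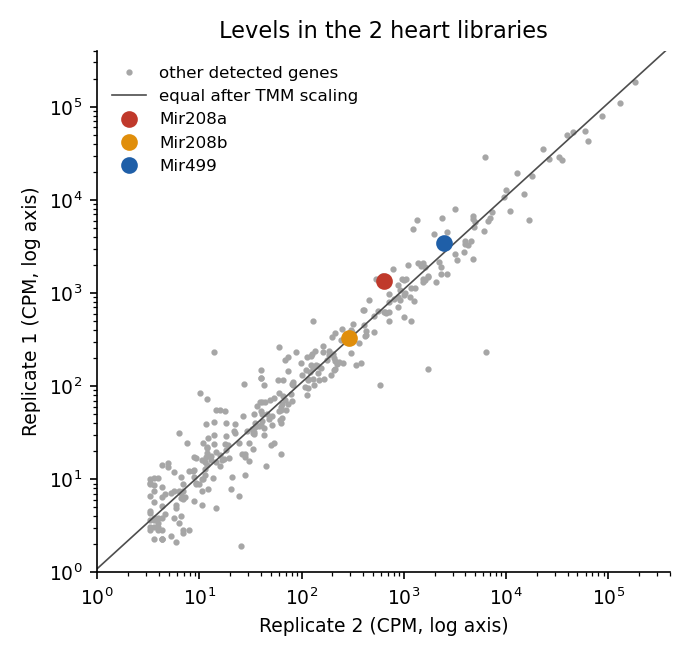
Level of each detected gene in replicate 1 (vertical) against replicate 2 (horizontal), in CPM on log axes, with equality after TMM scaling as a line. Mir208b lies at the line, Mir499 slightly above it and Mir208a farther above it (1356 against 641 CPM), within the cloud of the other genes.

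Markers of other cell types also moved between the libraries. The 2 erythroid markers summed to 337 and 6972 CPM in replicates 1 and 2, led by Mir451a with 1223 and 19348 reads. The endothelial Mir126a stood at 42911 and 63991 CPM, while the 2 smooth muscle markers went in opposite directions, Mir143 at 29124 and 33002 CPM and Mir145a at 1209 and 877 CPM. The 5 fibroblast markers, of which Mir199a-1 had 0 reads in both libraries, summed to 7989 and 3346 CPM. Their sum was led by Mir21a at 4926 and 1225 CPM, while Mir199a-2 went the other way, at 4.01 and 6.61 CPM. Of the 5 leukocyte markers, 4 were called higher in replicate 1, as were 120 (27.9%) of all 430 genes tested. In either direction, 238 (55.3%) of all genes tested were called. The fifth leukocyte marker, Mir155 (1591 and 2619 CPM), was called lower and brought the sum of the 5 to 3855 and 4154 CPM. The 2 epithelial markers summed to 463 and 307 CPM, and the liver marker Mir122 stood at 55.9 and 70.4 CPM. The part of these cell types in the differences of Mir208a and Mir499 was not tested.

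The other striated muscle microRNAs had few uniquely mapped reads, apart from Mir486. Of 8 genes, 4 reached 10 reads in both libraries, against 15.2% of all genes. Of 7 tested, 1 was called higher in replicate 1 and 2 lower. Over all 430 genes tested, 27.9% were called higher in replicate 1 and 55.3% in either direction. The median log2 difference of the 7 muscle genes was -0.68, the value of Mir133b with 6 and 5 reads, against -0.05 over all 430 genes tested. The summed level of the 8 muscle genes, mostly Mir486, was 695 CPM in the first library and 472 CPM in the other, higher in replicate 1. Mir486, which lies in the gene of the membrane protein ankyrin 1 and is abundant in muscle and red cells, stood at 658 and 410 CPM and was the one called higher (1.46-fold, exact binomial adjusted p = 3.56e-31). It lay above Mir208b and below Mir208a in both libraries.

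The Mir1 and Mir133 genes of this list, among them those of the abundant miR-1 and miR-133, stood far below the myosin-hosted genes in these tables. Mir1a-2 had 110 and 101 reads and was lower in replicate 1 (1.74-fold, exact binomial adjusted p = 0.000217). Mir1b overlaps Mir1a-2 on the opposite strand, so the opposite-strand counts of Mir1b (110 and 101) equal the own-strand counts of Mir1a-2. Mir1a-1 had 4 and 6 reads, Mir1b 10 and 0, Mir133a-1 16 and 12, Mir133a-2 7 and 1, and Mir133b 6 and 5. All 6 of these hairpins have 20 bases in a row in common with another one, and multimapped reads were left uncounted, so these low values do not show that miR-1 or miR-133 was rare. Among the cardiomyocyte markers used to check the tissue label, these 3 genes therefore carried nearly all counted reads, 5166 of 5192 CPM in replicate 1 and 3415 of 3454 CPM in replicate 2.

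Mir206, known chiefly from skeletal muscle, had 41 and 62 reads (7.83 and 20.5 CPM) and was lower in replicate 1 (2.86-fold, exact binomial adjusted p = 5.5e-07). Its level was under that of Mir208b, which slow skeletal muscle also expresses, in both libraries. The 7 cardiomyocyte markers, which include the 3 myosin-hosted genes, summed to 5192 and 3454 CPM, nearly all of it from those 3. The 2 skeletal muscle markers summed to 8.97 and 22.1 CPM. One of them, Mir133b, has 20 bases in a row in common with other hairpins, and multimapped reads were left uncounted. These sums are therefore no check of the tissue that is independent of the 3 genes.

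**Figure D4:**
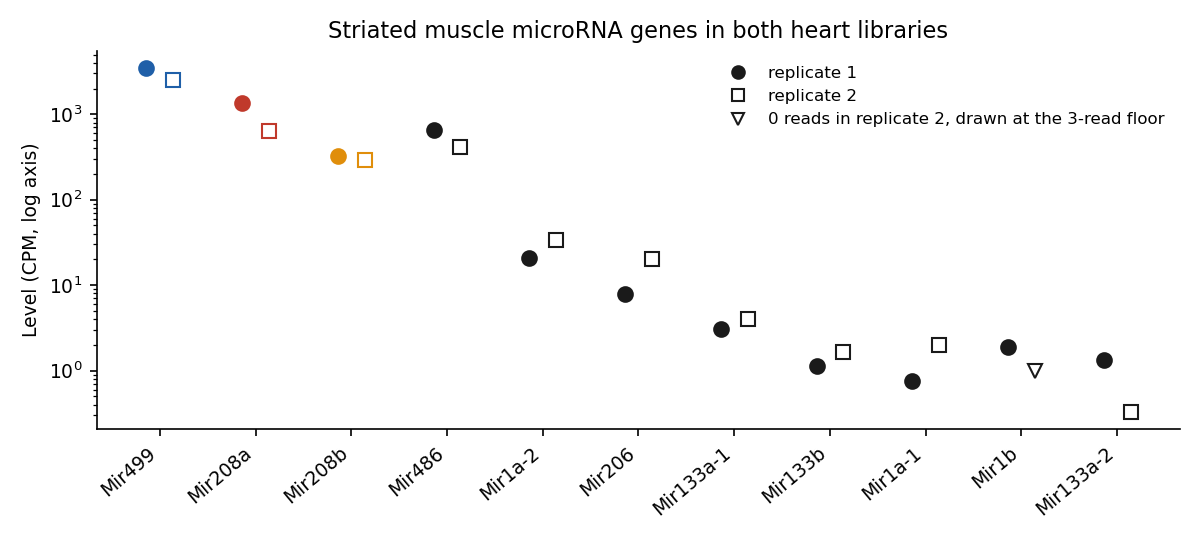
Level in CPM (log axis) of the 3 myosin-hosted genes in colour and of 8 other striated muscle microRNA genes in black, replicate 1 as filled circles and replicate 2 as open squares; a triangle marks a gene with 0 reads, drawn at the floor of 3 reads. Mir486 lies between Mir208a and Mir208b in both libraries, and the other 7 genes lie at 33.4 CPM or lower.

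Among microRNAs that, like these, lie in an intron of a protein-coding gene on its strand, the 3 genes were of upper rank. Of 733 such genes, 114 (15.6%) reached 10 reads in both libraries, close to the 15.2% of all genes. By mean CPM, Mir499 ranked number 17 among the 733, Mir208a number 28 and Mir208b number 40. Their ranks in replicates 1 and 2 were 15 and 18 for Mir499, 26 and 32 for Mir208a, and 39 and 39 for Mir208b.

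The genes whose pair of levels lay nearest were found by Euclidean distance in log2(CPM + 1) over the 2 libraries, among detected genes. For Mir208a these were Mir195a (1507 and 605 CPM, distance 0.17), Mir27a (1428 and 540 CPM, 0.26) and Mir145a (1209 and 877 CPM, 0.48). For Mir208b they were Mir483 (349 and 293 CPM, 0.09), Mir200c (379 and 297 CPM, 0.21) and Mir330 (383 and 313 CPM, 0.25). For Mir499 they were Mir351 (3457 and 2638 CPM, 0.09), Mir15b (4522 and 2672 CPM, 0.39) and Mir674 (4345 and 1971 CPM, 0.46). With only 2 libraries this measures a like level and a like difference.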

How the data were processed

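MicroRNA reads were counted in 2 heart libraries. According to the deposited readme, the authors made whole-number counts per gene, not normalized, on mm10 with GENCODE M21. The adapter trimming, the aligner and the counting tool were not given in the sources used here. Each table has 3 columns and no header, and the values show these to be unstranded, own-strand and opposite-strand counts. The own-strand column was used. The 4 lines that name no gene (unmapped 13.4% and 13.3% of reads, multimapped 41.1% and 39.9%, outside genes 4.33% and 4.30%, ambiguous 0%) stayed out of library sizes and tests.

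All 2202 gene identifiers matched GENCODE M21 names. CPM, exact 95% Clopper-Pearson intervals and a floor of 3 reads for a count of 0 were computed from the counts. Intervals cover counting error only, and PCR copies were not told apart here. The difference between the libraries was tested over all genes whose 2 counts sum to 10 or more, with a two-sided exact binomial test (doubled smaller tail), with TMM over those genes from edgeR 4.0.16 (R 4.3.3), 0.5 reads added for log2 differences, and Benjamini-Hochberg adjustment at 0.05. This test was tried on simulated data that held counting error only, with library totals in place of TMM. That trial does not cover a spread between samples beyond counting error. Sequences came from the RefSeq table of GRCm38.p6, which held all 3 genes, and hairpins from GENCODE M21 transcripts. Introns were taken from principal transcripts.

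The members and lists were chosen with earlier results of these data known. Named were the 3 members, 8 other striated muscle microRNAs, genes sharing a member's seed, the 3 detected genes nearest to each member in both libraries, and Mir451a, Mir126a and Mir143 among markers of 9 cell types. Mir695, Mir21a, Mir199a-1, Mir199a-2, Mir122, Mir155, the nearest hairpins and the 4 genes called by edgeR were named after their values were seen. The alternatives were unstranded counts, other denominators, read minimums and scalings (DESeq2 1.42.0), a pseudocount of 10, a fold of 1.5, each replicate alone, and edgeR's exact test with a dispersion. Other work used Python 3.11.15 with scipy 1.17.1, numpy 2.4.6, pandas 2.3.3 and matplotlib 3.10.9.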

Additional observations from a re-analysis of the deposited data

How the results depend on the processing

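Under the 61 alternatives, 0 results changed direction and 45 counted as the same. For differences this means a kept call, and for levels and ratios a value within the SD. Counts of genes have neither, and 387 detected genes against 335 and 202 called genes against 238 also counted as the same. Levels and counts of genes have no direction to change, and part of the 45 could not have come out otherwise. For levels and ratios, each replicate alone lies within the SD of the pair by construction. Unstranded counts could not move the ratios, because they equal the own-strand counts for these genes. The pseudocount enters no p-value, so the larger one could not alter a call. Per 1000000 of all reads, Mir499 stood at 1246, Mir208a at 416 and Mir208b at 129. With unstranded counts, whose totals lose ambiguous reads, Mir499 stood at 4073, Mir208a at 1359 and Mir208b at 422 CPM. Without the most abundant gene in the total, Mir499 stood at 3658, Mir208a at 1224 and Mir208b at 378 CPM. Each replicate alone gave 641 to 1356 CPM for Mir208a, 288 to 329 for Mir208b and 2486 to 3482 for Mir499, and log2 ratios of 1.15 to 2.04 for Mir208a to Mir208b, 1.36 to 1.96 for Mir499 to Mir208a and 3.11 to 3.41 for Mir499 to Mir208b. Mir208b gained a call with total counts (log2 0.19) and with no filter on low counts, where TMM ran over all genes with a read (log2 0.18). With edgeR's exact test at the estimated dispersion Mir208a (log2 0.95) and Mir499 (log2 0.35) lost their calls, as did Mir499 (log2 0.35, adjusted p = 0.197) at a coefficient of variation of 0.1.

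The count of called genes was 238, and was 123 with edgeR's exact test at 0.1, 4 at the estimated dispersion and 138 with a fold of at least 1.5. The count of detected genes was 335, and was 527 with at least 1 read, 206 with at least 100 reads, and 346 to 387 with each replicate alone. No paired analysis was possible because there is only 1 group; for the same reason the library difference has no value with a replicate left out. For Mir208b (1721 and 872 reads) the difference between the libraries was within counting error after TMM scaling (log2 -0.06 to 0.17). Its call depended on the scaling, since total counts, and TMM over all genes with a read, gave one on the same reads. The differences of Mir208a and Mir499 were beyond counting error.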
